A study of Mus musculus with 22 samples.

Results

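Mouse embryonic stem cells (ESCs) that had lost Ezh2 were compared with the same cells after Ezh2 had been put back, both in serum/LIF medium (LIF is the cytokine that keeps mouse ESCs self-renewing). The comparison took 5 of the series' 22 RNA-seq libraries, chosen by sample name alone: 3 of Ezh2-knockout clone 10 (n = 3) and 2 of its rescued counterpart (n = 2). Both groups are E14 cells labelled as ESCs, with genotypes written "Eeh2-null" and "Eeh2-rescued" and read here as Ezh2. The knockout is 1 clone and the rescued line is named after it, so changes that the clone carried before the rescue may be in both groups. Changes that arose later in either line cannot be told apart from those that follow Ezh2. The construct, the promoter that drives it and any selection used for the rescue were not given in the sources used here, nor was the way the clone was made. Wild-type E14 ESCs in medium with LIF (n = 3) and a further wild-type E14 set titled TG2A.NG.PB.ESC, called TG2A here (n = 2), gave the reference levels. ESCs and PrE (primitive endoderm) stem cells of the C57 line (n = 2 each) were used for gene lists and PrE levels. Knockout clone 10 and TG2A in medium with 2i inhibitors (n = 2 each) were used for further gene lists. The labels do not say whether replicates came from separate cultures, so the p-values measure only the spread between these libraries, which may be technical.

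EZH2 is the catalytic subunit of Polycomb repressive complex 2 (PRC2), which places the H3K27me3 mark on the histones of CpG-rich promoters and keeps many developmental genes silent in ESCs. EED and SUZ12 are the other core subunits, and EZH1 is the alternative methyltransferase. PRC1 complexes, some of which read the mark through CBX proteins, act beside it. Primitive endoderm (PrE) is the extraembryonic lineage that separates from the epiblast in the blastocyst under GATA6, GATA4 and SOX17, and ESCs are the cultured counterpart of the epiblast. Re-expression after a knockout asks which of the changes seen without Ezh2 are absent once it is back.

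The knockout libraries held 22.8 to 24.3 M estimated counts and the rescued libraries 17.8 to 18.6 M. Replicates correlated at 0.995 to 0.997 (Pearson, log2 CPM) and libraries of different groups at 0.954 to 0.958, across genes. Values are CPM, a share of the scaled library size, and changes are log2 fold changes of rescued over knockout, with the standard error (SE) and adjusted p from one edgeR quasi-likelihood fit to all 22 libraries. The threshold for a call was an adjusted p of 0.05. Defining ESC markers, summed over 7 genes, stood at 3829 to 3951 CPM in the knockout and 3581 to 3716 CPM in the rescued libraries, so both groups carry the labelled cell type's markers. Defining PrE markers, summed over 9 genes, stood at 1600 to 1882 CPM in the knockout, 186 to 195 CPM in the rescued and 140 to 168 CPM in the wild-type E14 libraries. Fibroblast (feeder) markers, summed over 15 genes, stood at 69.4 to 79.0 CPM and 36.2 to 42.2 CPM, with Dcn and Mmp3 at 0 in both groups and Col3a1, Postn, Lum and S100a4 at 0 also in the rescued one. Their part in the results below was not tested.

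Ezh2 (chr6:47530139-47595341 on the minus strand, mm10 coordinates from GENCODE M21) was absent from the knockout libraries but for 2, 1 and 1 counts. It stood at 495 and 533 CPM in the rescued libraries and at 173, 181 and 184 CPM in wild-type E14. The rescued level was therefore above wild type in both libraries, by 1.52 on the log2 scale (SE 0.14, adjusted p = 1.25e-04). Against the knockout, Ezh2 rose by 13.02 on the log2 scale (SE 0.27, adjusted p = 5.79e-15). Ezh1 stood at 16.8, 16.3 and 15.9 CPM in the knockout and 22.8 and 20.6 CPM in the rescued libraries, and at 48.1, 45.6 and 40.5 CPM in wild-type E14. Its difference between rescued and knockout, 0.41 on the log2 scale, did not pass the test (SE 0.19, adjusted p = 0.0938), and both groups lay below every E14 library. For Ezh1 the difference between rescued and E14 was not called either.

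**Figure D1:**
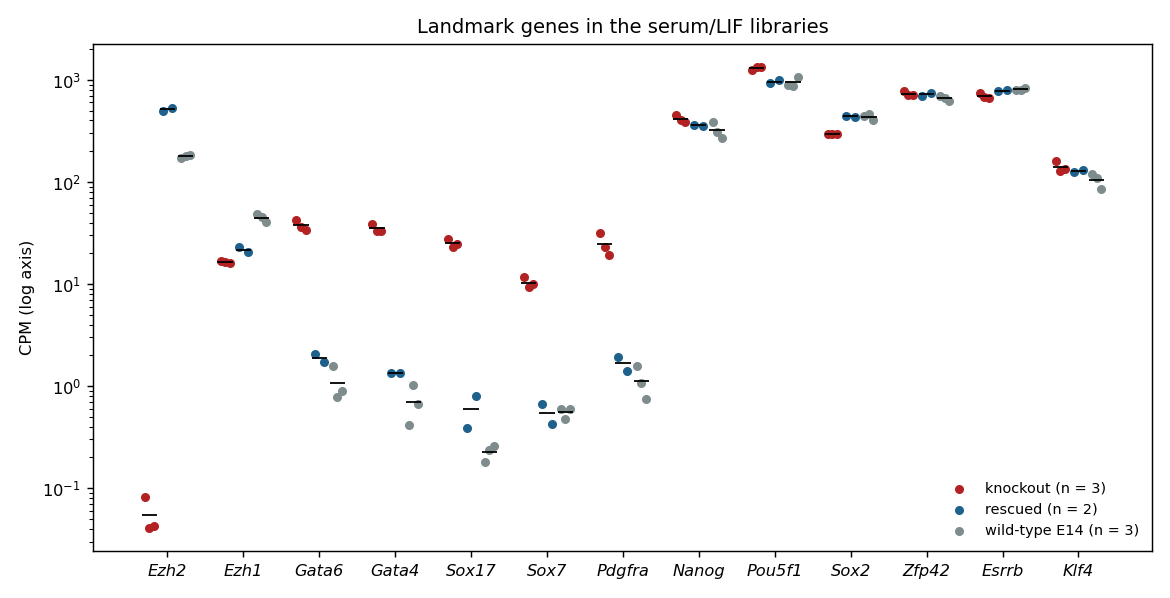
Level (CPM, log axis) of the 13 landmark genes in the 3 knockout, 2 rescued and 3 wild-type E14 libraries, with 1 point per library and a bar at the group mean. Ezh2 is near 0 in the knockout, the 5 PrE genes Gata6, Gata4, Sox17, Sox7 and Pdgfra lie above both other groups there, and the pluripotency genes lie close together in all 3 groups.

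A large part of the transcriptome differed once Ezh2 was back, in both directions, and the large changes were mostly falls. Of 17547 genes tested, 7896 were called (45%). Of these, 3671 rose (20.9%) and 4225 fell (24.1%). These shares are the reference for the list counts below. At 4-fold or more, 1130 fell and 332 rose, and at 16-fold or more, 447 fell and 34 rose. Groups did not overlap for 7889 of the called genes, beside 74.6% of all tested genes, so non-overlap was common in this comparison. In all, 169 called genes had 0 counts in both rescued libraries, and 9 had 0 counts in all 3 knockout libraries. Predicted gene models made up 925 of the called genes. When the test asked for more than a 1.5-fold change, 1333 genes rose and 1754 fell. The excess of falls in the count of all calls was not stable: without rescued replicate 1, 2857 genes rose and 2537 fell, without knockout replicate 1, 3618 and 3555, and without knockout replicate 3, 3372 and 3371. At 2-fold or more, 1339 rose and 2174 fell, and falls outnumbered rises in each fit that left out 1 library (1483 to 1942 against 1099 to 1368).

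**Figure D2:**
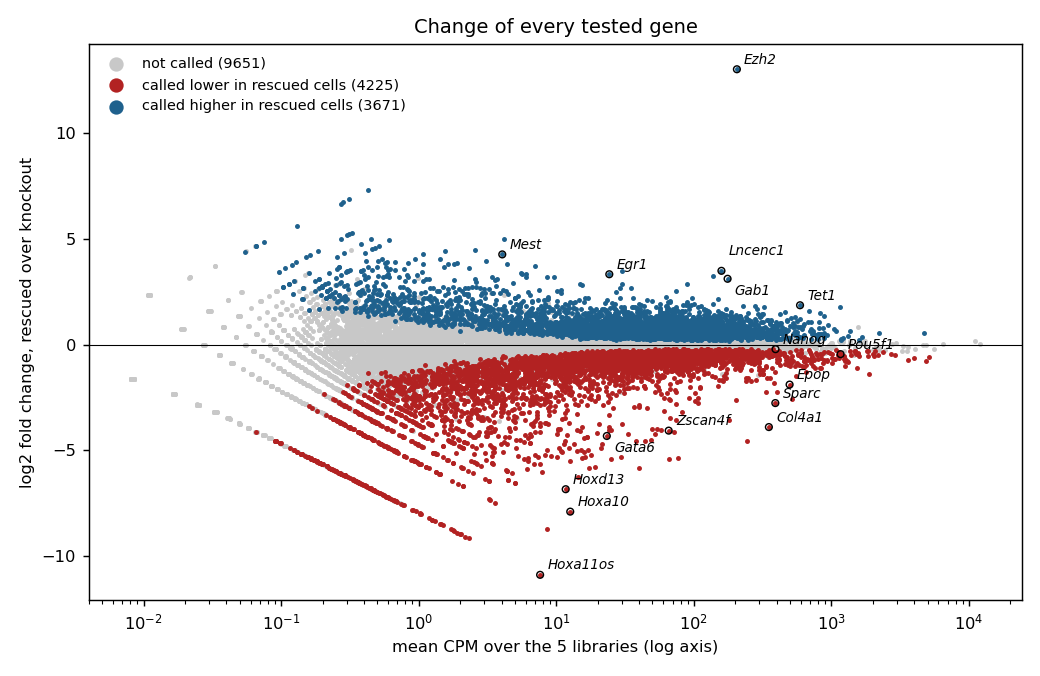
Mean level (CPM) against log2 fold change of rescued over knockout for the tested genes, with called rises and falls coloured and the named genes labelled. The 79 genes with 0 counts in all 5 libraries are not drawn, and the fitted change of genes with 0 counts in 1 group depends on a prior count. Falls reach further than rises, apart from Ezh2 itself.

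Small changes moved with gene length. Over 10454 protein-coding genes at a mean of at least 5 CPM, the median log2 change was -0.49 in the shortest of 5 equal groups (summed exons of 204 to 2685 bases) and -0.19, 0.03 and 0.22 in the next 3. It was 0.53 in the longest group (7956 to 123179 bases). Rises made up 5.45% of the shortest and 58.7% of the longest genes, and falls 55.9% and 7.99%. Among single libraries, the long genes were low against the short ones in the 3 knockout libraries (-0.598, -0.765 and -0.756, log2, relative to the mean of all libraries) and high in both rescued libraries (0.311 and 0.275). The E14 libraries stood at 0.325, 0.276 and 0.0989, TG2A at -0.396 and -0.535, and the 4 libraries with 2i inhibitors at -0.0669 to 0.0637. With a length correction inside the fit, the medians of the 5 groups ran from -0.03 to 0.00, and 3173 genes rose and 3476 fell. Each called change below 2-fold is therefore given with its length-corrected value, and the source of the trend was not tested. Some larger called changes also lost the call with the correction.

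**Figure D3:**
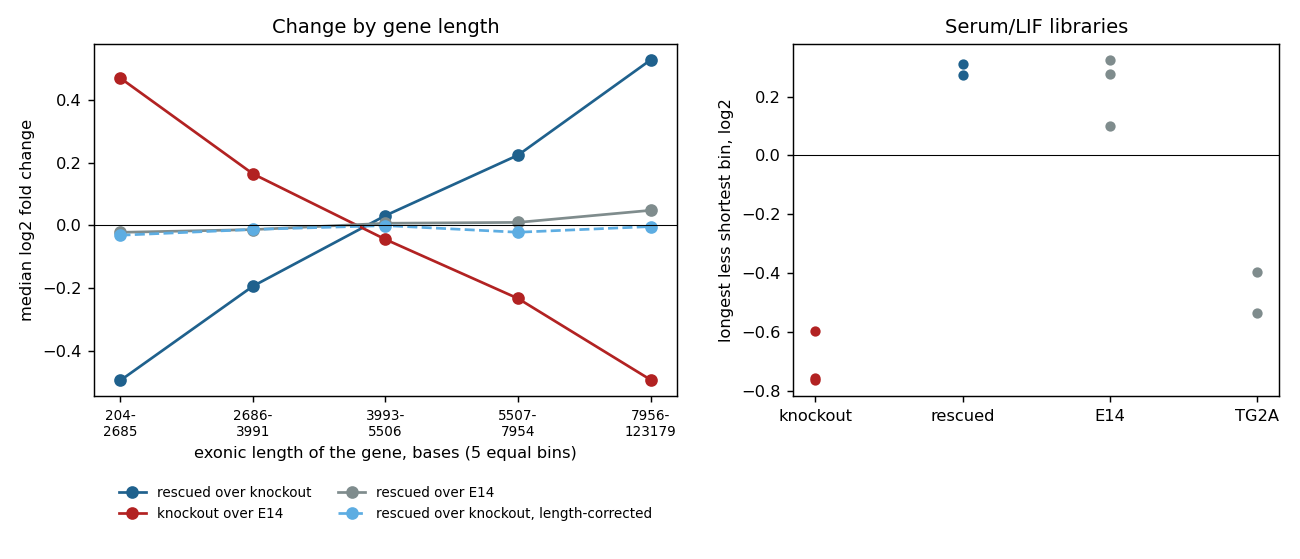
Left, median log2 fold change by summed exon length (5 equal bins of genes) for rescued over knockout, as fitted and with the length correction, knockout over E14 and rescued over E14. Right, the median of the longest less that of the shortest bin in each serum/LIF library (log2, 1 point per library). Rescued over knockout runs from -0.49 to 0.53, and rescued over E14 and the corrected line stay near 0.

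The largest falls were at the distal HoxA cluster. Hoxa11os, the RNA opposite to Hoxa11, stood at 11.8, 14.7 and 11.6 CPM in the knockout and had 0 counts in both rescued libraries, at least 156-fold lower. Hoxa11 and Hoxa11os overlap and the counting strand is unknown, so their reads cannot be told apart. The other large falls outside the Hox genes were of unlike kinds. Tmem92, a membrane protein, stood at 19.5, 25.9 and 25.4 CPM in the knockout and 0.166 and 0.429 CPM in the rescued libraries, and it fell by 6.27 on the log2 scale (SE 0.74, adjusted p = 1.68e-05). Adora1, an adenosine receptor, stood at 10.9, 9.32 and 10.05 CPM in the knockout and 0.277 and 0.0536 CPM in the rescued libraries. Adora1 fell by 5.89 on the log2 scale (SE 0.67, adjusted p = 3.87e-06). Alppl2, an embryonic alkaline phosphatase, stood at 21.3, 33.1 and 31.2 CPM in the knockout and 0.444 and 0.536 CPM in the rescued libraries. Alppl2 fell by 5.85 on the log2 scale (SE 0.78, adjusted p = 6.26e-05). Flt1, a receptor for vascular endothelial growth factor, stood at 7.84, 13.5 and 12.8 CPM in the knockout and 0.222 and 0.214 CPM in the rescued libraries, with a log2 fold change of -5.66 (SE 0.51, adjusted p = 3.82e-07). Eif4a3l2, a copy of an RNA helicase gene whose reads may be shared with its relatives, differed by -5.81 (SE 0.45, adjusted p = 2.68e-07). The ranking admitted only genes whose rescued and knockout libraries did not overlap, so their separation is set by that rule.

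Rises were smaller. Lncenc1, a long noncoding RNA of naive ESCs, stood at 32.1, 30.9 and 30.4 CPM in the knockout and 339 and 361 CPM in the rescued libraries. Lncenc1 rose by 3.49 on the log2 scale (SE 0.32, adjusted p = 4.69e-07). Egr1, an immediate early gene of the ERK pathway, stood at 5.12, 4.904 and 5.72 CPM in the knockout and 49.7 and 56.04 CPM in the rescued libraries, and Gab1, an adaptor between receptors and the ERK pathway, at 41.1, 44.6 and 44.01 CPM in the knockout and 367 and 383 CPM in the rescued libraries. They rose by 3.33 (SE 0.46, adjusted p = 2.61e-05) and 3.12 (SE 0.08, adjusted p = 1.93e-13) on the log2 scale. Ptch1, the hedgehog receptor, stood at 34.3, 29.9 and 31.1 CPM in the knockout and 302 and 294 CPM in the rescued libraries. Ptch1 rose by 3.23 on the log2 scale (SE 0.201, adjusted p = 2.59e-08). Non-overlap of the groups was again a condition for this ranking and is not a result. Klf12, a repressive zinc finger factor, differed by 3.21 (SE 0.33, adjusted p = 1.23e-06), Ubap1l by 3.21 (SE 0.44, adjusted p = 2.56e-05), Zfp966 by 2.84 (SE 0.198, adjusted p = 4.83e-08) and Tex14, a protein of germ cell bridges, by 2.68 (SE 0.26, adjusted p = 6.62e-07). Ttn, the giant muscle protein, rose by 3.49 (SE 0.25, adjusted p = 6.50e-08) on the log2 scale, and by 1.76 with the length correction.

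Among genes at a mean of at least 50 CPM, the falls with the lowest p-values were of Sparc, Lrpap1, S100a10, Adam15 and Rabac1, genes of unlike roles. Sparc, a collagen-binding matrix protein made in quantity by parietal endoderm, stood at 592, 596 and 593 CPM in the knockout and 85.3 and 90.01 CPM in the rescued libraries, and Lrpap1, the chaperone of LRP receptors, at 321, 292 and 293 CPM in the knockout and 47.4 and 51.9 CPM in the rescued libraries. Their log2 fold changes were -2.76 (SE 0.12, adjusted p = 2.89e-10) and -2.603 (SE 0.15, adjusted p = 1.72e-08). S100a10, a calcium-binding partner of annexin, differed by -2.63 (SE 0.18, adjusted p = 4.93e-08), Adam15, a membrane protease, by -1.57 (SE 0.11, adjusted p = 4.93e-08) and Rabac1, a trafficking protein, by -1.303 (SE 0.08, adjusted p = 2.87e-08). The rises with the lowest p-values beside Ezh2 and Gab1 were Mdc1, a DNA damage scaffold, at 1.91 (SE 0.08, adjusted p = 1.38e-10), Mga, a subunit of a variant PRC1 complex, at 1.81 (SE 0.099, adjusted p = 8.49e-09), and Zfp266 at 1.42 (SE 0.08, adjusted p = 1.40e-08), all log2 fold changes. All 8 of these kept their direction with the length correction, the nearest to 0 being Rabac1 at -0.77.

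The upstream sequences of 4 genes that fell are printed as chosen examples that differ in CpG number. Each is the 250 bases before the annotated start, 5′ to 3′ on the gene's strand (RefSeq, GRCm38.p6), with each CpG in capitals. Hoxa11 (chr6:52245811-52246060, minus strand) and Hoxd13 (chr2:74667975-74668224, plus strand) stand for Hox genes that PRC2 is known to silence, with 13 and 31 CpGs. Zscan4d (chr7:11166149-11166398, minus strand) and Usp17lc (chr7:103416446-103416695, plus strand) stand for genes of the 2-cell embryo, with 3 CpGs and 1 CpG.
Hoxa11: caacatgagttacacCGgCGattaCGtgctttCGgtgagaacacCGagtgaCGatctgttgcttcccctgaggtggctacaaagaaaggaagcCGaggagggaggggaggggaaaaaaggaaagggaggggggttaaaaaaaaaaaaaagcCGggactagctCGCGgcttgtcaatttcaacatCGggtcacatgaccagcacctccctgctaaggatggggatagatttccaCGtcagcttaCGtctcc
Hoxd13: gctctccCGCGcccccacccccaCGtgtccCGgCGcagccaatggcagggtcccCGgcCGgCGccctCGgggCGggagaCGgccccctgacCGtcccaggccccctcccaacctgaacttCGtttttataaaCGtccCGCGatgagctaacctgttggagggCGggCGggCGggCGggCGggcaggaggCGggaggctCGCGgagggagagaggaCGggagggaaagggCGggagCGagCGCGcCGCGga
Zscan4d: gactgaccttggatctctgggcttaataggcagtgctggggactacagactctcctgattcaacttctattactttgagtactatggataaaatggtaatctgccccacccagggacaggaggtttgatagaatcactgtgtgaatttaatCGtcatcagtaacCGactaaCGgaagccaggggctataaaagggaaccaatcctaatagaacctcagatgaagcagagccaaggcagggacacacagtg
Usp17lc: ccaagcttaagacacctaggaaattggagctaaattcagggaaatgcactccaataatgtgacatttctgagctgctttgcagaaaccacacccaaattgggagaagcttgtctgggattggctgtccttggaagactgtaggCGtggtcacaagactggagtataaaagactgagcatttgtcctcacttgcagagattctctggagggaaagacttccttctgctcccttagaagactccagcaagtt

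At least 10 CpGs (the letters CG, counted on either strand alike) stood in this window for 37.4% of all 22862 RefSeq promoters and for 70.4% of the 10019 tested genes with a single listed promoter. Among genes that fell at least 4-fold the share was 49.9% (294 of 589), among genes that rose at least 4-fold 34.8% (32 of 92), and among genes not called 65.0%. Of 20 Hox genes with a single listed promoter, 13 held 10 or more (65%), a share like that of genes not called. So did 23 of 29 of the other homeobox genes and none of the 6 genes of the 2-cell list. CpG number is a description of the sequence and says nothing of PRC2 at these promoters in these cells.

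Hox genes, the clustered homeobox factors that set position along the body axis and classical PRC2 targets, were low in both rescued libraries. Of 39 genes 33 could be tested. Of these 29 fell and none rose, beside 24.1% of all tested genes that fell and 20.9% that rose. In all 33 both rescued libraries lay below all 3 knockout libraries, as they did in 41.3% of all tested genes. Falls were called in 9 of 10 tested HoxA genes, 5 of 7 HoxB, 8 of 9 HoxC and 7 of 7 HoxD. The median fitted change was -4.69, or -4.15 with the 8 genes that had 0 rescued counts set at their bound. A gene passed the filter on low counts mostly through the knockout libraries, so the share that fell is partly set by that filter, here and in the factor lists that follow. Hoxa6, Hoxb1, Hoxb5, Hoxb6, Hoxd3 and Hoxd12 did not pass it, with 6, 16, 3, 12, 4 and 32 counts over the knockout libraries and 0, 1, 0, 0, 2 and 0 over the rescued ones.

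Several posterior genes of the clusters were reduced to a few reads. Hoxa11 stood at 15.2, 15.2 and 12.5 CPM in the knockout and 0.0554 and 0 CPM in the rescued libraries, 1040 against 1 counts, which is 525-fold lower (exact 95% interval 94.1 to 20764). Hoxa10 stood at 23.8, 22.1 and 17.1 CPM in the knockout and 0.0554 and 0.107 CPM in the rescued libraries, 258-fold lower (exact 95% interval 87.97 to 1250.3). Hoxd13, the most distal gene of HoxD, stood at 18.6, 21.1 and 18.5 CPM in the knockout and 0.222 and 0.107 CPM in the rescued libraries, 1411 against 6 counts. Hoxd13 fell by 6.83 on the log2 scale (SE 0.55, adjusted p = 1.32e-07). Hoxc9 stood at 3.13, 2.82 and 2.93 CPM, Hoxd11 at 1.54, 4.21 and 3.31 CPM and Hoxc10 at 2.397, 1.72 and 3.05 CPM in the knockout, and all had 0 counts in both rescued libraries, at least 36.2-fold lower, at least 36.9-fold lower and at least 29.1-fold lower. Wild-type E14 held the same genes at comparably low levels, with 0 to 0.479 CPM over the 6 genes. The 4 tested Hox genes that were not called were Hoxa4, Hoxb8, Hoxb9 and Hoxc5, with differences of -1.61, -2.36, -0.94 and -2.62. Hoxb9 stood at 4.18, 4.86 and 5.003 CPM in the knockout and 3.16 and 1.71 CPM in the rescued libraries, and at 3.11, 2.99 and 2.35 CPM in wild-type E14. Intervals and bounds cover counting error only.

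**Figure D4:**
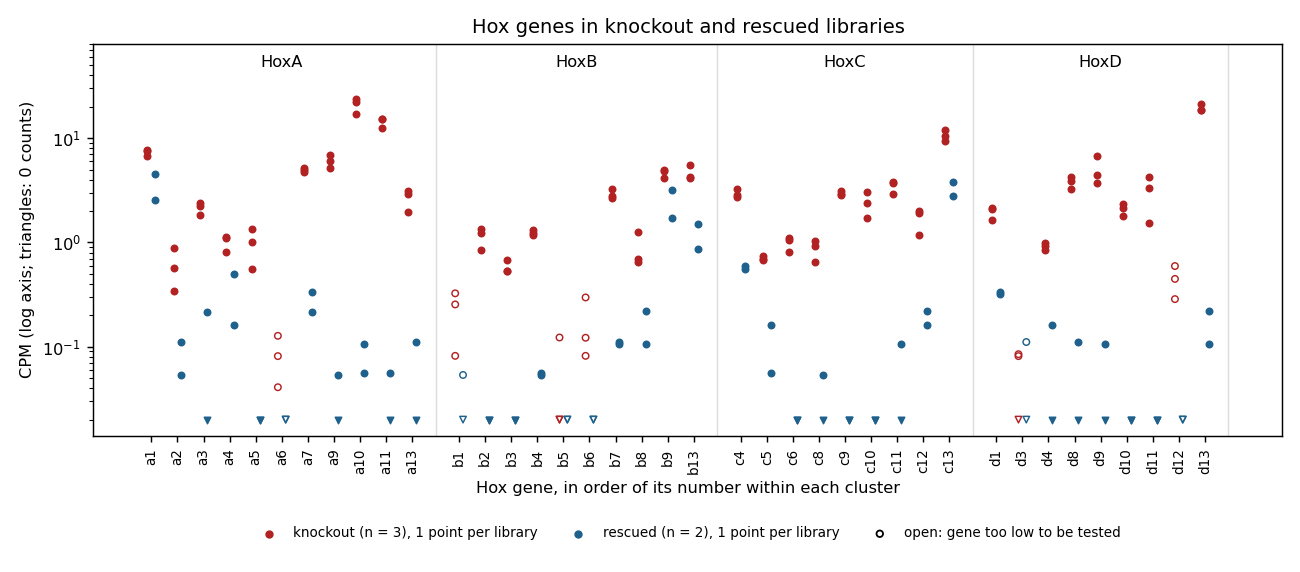
Level (CPM, log axis) of each Hox gene in the 3 knockout and 2 rescued libraries, with 1 point per library, in order of gene number within the HoxA, HoxB, HoxC and HoxD clusters. Triangles mark 0 counts and open symbols genes too low to test. In all 33 tested genes the rescued points lie below the knockout points.

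Among other developmental transcription factors most called changes were also falls. Among 36 tested homeobox factors outside the clusters (of 40 listed), 26 fell and none rose, with a median change of -3.07 with bounds. Members at about 1 CPM or less in the knockout passed the filter through that group, so these values describe the tested members only. Pitx1, a hindlimb and pituitary factor, stood at 3.94, 4.45 and 3.94 CPM in the knockout and 0 and 0.107 CPM in the rescued libraries. Pitx1 fell by 6.07 on the log2 scale (SE 0.83, adjusted p = 2.31e-05). Evx1, the homeobox gene beside HoxA, stood at 1.99, 2.33 and 2.33 CPM in the knockout and 0.0554 and 0 CPM in the rescued libraries, a change of -6.03 (SE 1.17, adjusted p = 5.60e-04). Six3, a forebrain factor, Nkx6-1, of motor neurons and pancreas, and Alx4, of limb and skull, stood at 0.894, 0.981 and 0.509, 0.488, 0.531 and 0.636 and 0.609, 0.817 and 0.382 CPM in the knockout, with 0 counts in both rescued libraries. Their bounds are at least 9.76-fold lower, at least 6.73-fold lower and at least 7.41-fold lower. Alx4 was not called without rescued replicate 1 (-6.48) or replicate 2 (-6.503).

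Of 22 tested T-box, Pax and Zic factors, 11 fell, 2 rose and 9 were not called, beside 24.1% falling and 20.9% rising over all tested genes. Pax9 and Pax1, of the pharynx and the sclerotome, stood at 1.22, 1.72 and 2.16 and 0.975, 0.94 and 1.102 CPM in the knockout and had 0 counts in the rescued libraries, at least 20.7-fold lower and at least 12.3-fold lower. Pax3, of neural crest and muscle, also had 0 rescued counts and is at least 7.91-fold lower. Tbx18, a factor of heart and ureter mesenchyme, stood at 2.52, 1.31 and 2.04 CPM in the knockout and 0.0554 and 0 CPM in the rescued libraries. Tbx18 fell by 5.85 on the log2 scale (SE 1.27, adjusted p = 0.00134). Zic1 stood at 2.93, 2.25 and 3.604 CPM in the knockout and 0.111 and 0 CPM in the rescued libraries, a change of -5.58 (SE 1.35, adjusted p = 0.0031). Zic5, a neural zinc finger factor, was among those that rose. Zic5 stood at 7.15, 8.09 and 6.23 CPM in the knockout and 27.6 and 30.9 CPM in the rescued libraries, a change of 2.03 (SE 0.35, adjusted p = 2.10e-04).

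Of 26 tested GATA, Fox and Sox factors, a list that shares 5 genes with the PrE factors below, 17 fell and none rose. Foxf2, a mesenchyme factor, stood at 3.01, 2.04 and 2.08 CPM in the knockout and 0 and 0.0536 CPM in the rescued libraries. Foxf2 fell by 6.13 on the log2 scale (SE 0.82, adjusted p = 2.33e-05). Foxc1, of mesoderm and eye, Foxl2, of the ovary, and Gata5, of heart and endoderm, had 0 rescued counts and knockout levels of 0.284, 0.817 and 0.382, 0.488, 0.327 and 0.509 and 0.203, 0.695 and 0.254 CPM, at least 6.06-fold lower, at least 5.39-fold lower and at least 4.71-fold lower. Gata5 was not called without either rescued replicate (-5.84 and -5.86), without knockout replicate 2 (-5.09) or with the length correction (-5.76). Gata3, of trophoblast and T cells, stood at 4.88, 2.901 and 3.18 CPM in the knockout and 0.277 and 0.268 CPM in the rescued libraries. Gata3 fell by 3.71 on the log2 scale (SE 0.79, adjusted p = 0.00111). Of 13 tested basic helix-loop-helix factors (of 18 listed), 7 fell and 1, Neurod1, rose. Hand2, Olig2 and Atoh1, of heart, spinal cord and hindbrain, had 0 rescued counts and are at least 9.595-fold lower, at least 7.58-fold lower and at least 4.88-fold lower. Hand2 and Atoh1 were not called without rescued replicate 1 (-6.85 and -5.89) or replicate 2 (-6.88 and -5.92). Olig3 changed by -4.46 (SE 1.13, adjusted p = 0.00568) and Twist1, a mesoderm factor, by -3.199 (SE 0.77, adjusted p = 0.00288), and neither was called without rescued replicate 2 (-3.62 and -2.76). Neurod1 stood at 1.18, 1.103 and 1.06 CPM in the knockout and 2.83 and 3.64 CPM in the rescued libraries, below 7.97, 7.41 and 14.3 CPM in wild-type E14, and was not called without rescued replicate 2 (1.32).

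Primitive streak, neuroectoderm and trophoblast lists moved less evenly. Of 9 tested streak genes, 4 fell and none rose, beside 24.1% falling and 20.9% rising over all tested genes. Gsc, of the organizer, stood at 1.38, 1.23 and 2.501 CPM in the knockout and 0 and 0.0536 CPM in the rescued libraries. Gsc fell by 5.65 on the log2 scale (SE 1.08, adjusted p = 5.60e-04). Eomes, of streak and trophoblast, stood at 9.304, 10.9 and 11.3 CPM in the knockout and 2.88 and 3.38 CPM in the rescued libraries. Eomes fell by 1.74 on the log2 scale (SE 0.402, adjusted p = 0.00213). T, the streak factor, was at 0.772, 0.49 and 0.678 CPM in the knockout and 0.111 and 0.214 CPM in the rescued libraries, with a change of -1.94 (SE 0.77, adjusted p = 0.0483), and was not called in any fit that left out 1 library (-2.495 to -1.54) or with the length correction (-1.61). Of 7 tested neuroectoderm genes, Zic1 and Nes fell. Nes, an intermediate filament of neural progenitors, stood at 33.7, 31.998 and 32.7 CPM in the knockout and 8.37 and 8.14 CPM in the rescued libraries, a change of -1.99 (SE 0.55, adjusted p = 0.00729), and was not called without either rescued replicate (-1.98 and -1.99). Of 11 tested trophoblast genes, 8 fell and 1, Tfap2c, rose. Krt8 and Krt18, keratins of simple epithelia, stood at 59.2, 90.8 and 86.2 CPM in the knockout and 5.21 and 4.88 CPM in the rescued libraries and at 45.1, 66.6 and 71.7 CPM in the knockout and 9.59 and 7.61 CPM in the rescued libraries. They changed by -3.96 (SE 0.42, adjusted p = 1.73e-06) and by -2.83 (SE 0.47, adjusted p = 1.35e-04). Tfap2a, of trophoblast and neural crest, changed by -3.62 (SE 0.51, adjusted p = 2.86e-05) and Hand1, of trophoblast and heart, by -3.47 (SE 0.66, adjusted p = 5.28e-04). Tfap2c stood at 20.2, 23.7 and 21.4 CPM in the knockout and 66.2 and 61.3 CPM in the rescued libraries, so that trophoblast markers summed over 7 genes were lower in the knockout (41.4 to 48.1 CPM) than in the rescued libraries (66.9 to 72.3 CPM).

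PrE transcription factors fell to near wild-type levels. Of 10 tested, 8 fell, none rose, and Hnf4a and Hhex were not called. Gata6, the earliest PrE factor, stood at 42.4, 36.2 and 34.2 CPM in the knockout and 2.05 and 1.71 CPM in the rescued libraries, and at 1.56, 0.777 and 0.896 CPM in wild-type E14. Gata6 fell by 4.32 on the log2 scale (SE 0.65, adjusted p = 6.06e-05). Gata4, its partner in endoderm, stood at 38.5, 33.2 and 33.2 CPM in the knockout and 1.33 and 1.34 CPM in the rescued libraries. Gata4 fell by 4.71 on the log2 scale (SE 0.702, adjusted p = 5.24e-05). Sox17 and Sox7, endoderm SOX factors, stood at 27.3, 23.2 and 24.5 CPM in the knockout and 0.388 and 0.804 CPM in the rescued libraries and at 11.8, 9.32 and 9.92 CPM in the knockout and 0.665 and 0.429 CPM in the rescued libraries. They changed by -5.37 (SE 0.66, adjusted p = 8.55e-06) and by -4.23 (SE 0.53, adjusted p = 9.19e-06). In each of these genes the lowest knockout library was above both rescued libraries, as in 41.3% of all tested genes. Foxq1 changed by -5.76 (SE 0.74, adjusted p = 1.26e-05), Foxa2, of definitive and extraembryonic endoderm, by -5.72 (SE 0.98, adjusted p = 1.85e-04) and Cited1, a transcriptional cofactor, by -5.27 (SE 0.53, adjusted p = 1.12e-06), all on the log2 scale. In bulk samples fewer cells of a type and less RNA per cell cannot be told apart.

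The knockout level of these genes was far below that of PrE stem cells in the same series. Gata6 stood at 305 and 306 CPM and Gata4 at 443 and 303 CPM in PrE stem cells of the C57 line. Sox17 stood at 263 and 139 CPM there. The summed PrE markers were 13443 to 14511 CPM in those libraries, against 1600 to 1882 CPM in the knockout ESCs.

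Of 17 surface, uptake and basement membrane genes of PrE, 13 fell, 1 rose and 3 were not called. Pdgfra, the receptor that marks early PrE, stood at 31.5, 22.9 and 19.3 CPM in the knockout and 1.94 and 1.39 CPM in the rescued libraries. Pdgfra fell by 3.88 on the log2 scale (SE 0.47, adjusted p = 7.06e-06). Dab2, an endocytic adaptor, stood at 136, 103 and 107 CPM in the knockout and 8.15 and 5.197 CPM in the rescued libraries. Dab2 fell by 4.11 on the log2 scale (SE 0.55, adjusted p = 1.78e-05). Col4a1 and Col4a2, the collagen IV chains of the basement membrane, stood at 614, 537 and 529 CPM in the knockout and 38.4 and 37.02 CPM in the rescued libraries and at 419, 388 and 377 CPM in the knockout and 17.9 and 16.1 CPM in the rescued libraries. They changed by -3.89 (SE 0.37, adjusted p = 6.60e-07) and by -4.54 (SE 0.38, adjusted p = 1.95e-07). Srgn, a secretory granule proteoglycan, changed by -5.32 (SE 0.83, adjusted p = 8.04e-05). The laminin genes divided. Lama1 stood at 857, 739 and 748 CPM in the knockout and 131 and 130.4 CPM in the rescued libraries, a change of -2.58 (SE 0.52, adjusted p = 6.94e-04), and Lamb1 changed by -1.82 (SE 0.31, adjusted p = 1.93e-04), while Lamc1 stood at 965, 757 and 750.3 CPM in the knockout and 691 and 734 CPM in the rescued libraries. Lamc1 differed by -0.21 on the log2 scale, which did not pass the test (SE 0.39, adjusted p = 0.686). Nid2, a nidogen of the same membranes, was the 1 gene that rose, by 0.48 on the log2 scale (SE 0.11, adjusted p = 0.0015), or by 0.38 with the length correction, and Nid1 and Lrp2 were the others not called.

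Of 8 parietal endoderm genes, 6 fell, and without rescued replicate 2 only 3 were called. Pth1r, the parathyroid hormone receptor of parietal endoderm, stood at 12.9, 19.1 and 19.4 CPM in the knockout and 0.721 and 0.429 CPM in the rescued libraries. Pth1r fell by 4.89 on the log2 scale (SE 0.40, adjusted p = 1.68e-07). Thbd, thrombomodulin, changed by -5.17 (SE 1.301, adjusted p = 0.004) and was not called without rescued replicate 2 (-4.25). Stra6, a retinol transporter, changed by -2.66 (SE 0.45, adjusted p = 1.57e-04) and Snai1, a factor of epithelial-mesenchymal transition, by -2.15 (SE 0.27, adjusted p = 1.02e-05). Of 6 tested visceral endoderm genes (of 10), 4 fell. Dkk1, a secreted Wnt inhibitor, stood at 16.7, 10.5 and 10.2 CPM in the knockout and 0.166 and 0.321 CPM in the rescued libraries. Dkk1 fell by 5.63 on the log2 scale (SE 0.74, adjusted p = 1.64e-05). Ihh, a hedgehog ligand, changed by -2.196 (SE 0.48, adjusted p = 0.00147) and Rbp4, a retinol carrier, by -1.84 (SE 0.43, adjusted p = 0.00256). Apob, of lipoproteins, changed by -1.803 (SE 0.57, adjusted p = 0.0168) and was not called without rescued replicate 1 (-1.68) or 2 (-1.93). Afp, Ttr, Apoa1 and Cer1, the classical visceral endoderm genes, were too low to test, with 11, 32, 21 and 2 counts over the 3 knockout libraries.

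Most pluripotency genes were not called, as were 55.0% of all tested genes. Of 14 naive genes, 11 were not called, 2 fell and 1 rose, and the median change was -0.04. Nanog stood at 454, 403 and 388 CPM in the knockout and 365 and 352 CPM in the rescued libraries. Nanog differed by -0.21 on the log2 scale, which did not pass the test (SE 0.21, adjusted p = 0.449), and with the length correction the sign was opposite (0.15). Esrrb stood at 746, 680.2 and 664 CPM in the knockout and 771 and 795 CPM in the rescued libraries, a difference of 0.17 (SE 0.35, adjusted p = 0.725), and Klf4 at 159, 129 and 135 CPM in the knockout and 126 and 131 CPM in the rescued libraries, a difference of -0.14 (SE 0.44, adjusted p = 0.824). Both signs turned with the length correction (-0.03 and 0.08). Zfp42 (Rex1) stood at 782, 712 and 708 CPM in the knockout and 702 and 746 CPM in the rescued libraries, a difference of -0.02 (SE 0.11, adjusted p = 0.904), whose direction was not stable across settings and which was called as a rise with the length correction (0.42). Tcl1, an AKT coactivator of ESCs, stood at 95.5, 93.5 and 94.1 CPM in the knockout and 45.6 and 43.6 CPM in the rescued libraries and fell by 1.08 (SE 0.23, adjusted p = 0.00106). Prdm14 fell by 0.70 (SE 0.23, adjusted p = 0.0219), and was not called with the length correction (-0.399) or when any 1 of the 5 libraries was left out (-0.74 to -0.65). Nr5a2, an orphan nuclear receptor, rose by 0.76 (SE 0.17, adjusted p = 0.00193), or 0.58 with the length correction.

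Of 10 general pluripotency genes, 2 rose, 2 fell and 6 were not called, close to the shares of all tested genes. Pou5f1 (Oct4) stood at 1255, 1325 and 1335 CPM in the knockout and 927 and 989 CPM in the rescued libraries. Pou5f1 differed by -0.45 on the log2 scale, which did not pass the test (SE 0.18, adjusted p = 0.0514), and it was called as a fall when library totals alone scaled the counts (-0.47), with RLE size factors (-0.44) and in DESeq2 (-0.44). With the length correction it was -0.09. Sox2 stood at 298, 293 and 293 CPM in the knockout and 446 and 433 CPM in the rescued libraries. Sox2 rose by 0.58 on the log2 scale (SE 0.13, adjusted p = 0.00198), and by 0.98 with the length correction. Trim28, a corepressor, changed by -0.42 (SE 0.14, adjusted p = 0.0265), or by -0.37 with the length correction, and was not called when any 1 library was left out (-0.51 to -0.33). Dppa2 changed by -0.67 (SE 0.17, adjusted p = 0.00424) and was not called without rescued replicate 1 (-0.59) or with the length correction (-0.35). Of 10 formative and primed genes, 4 fell and 1 rose. Sox3 stood at 6.99, 7.56 and 6.61 CPM in the knockout and 1.28 and 1.23 CPM in the rescued libraries. Sox3 fell by 2.49 on the log2 scale (SE 0.43, adjusted p = 2.81e-04). Foxd3 changed by -1.25 (SE 0.19, adjusted p = 5.18e-05). Fgf5, a primed ligand at 0.731, 0.409 and 0.848 CPM in the knockout and 0 and 0.0536 CPM in the rescued libraries, changed by -4.30 (SE 1.505, adjusted p = 0.0339) and was not called without either rescued replicate (-3.45 and -6.64) or without knockout replicate 1 or 3 (-4.19 and -4.05).

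Among the Polycomb subunits themselves, the other core members of PRC2 were not called. Suz12 stood at 278, 237 and 239.8 CPM in the knockout and 301 and 284 CPM in the rescued libraries and Eed at 213, 188 and 187 CPM in the knockout and 185 and 203 CPM in the rescued libraries, differences of 0.22 (SE 0.18, adjusted p = 0.351) and -0.02 (SE 0.14, adjusted p = 0.939), and the sign for Eed turned with the length correction (0.09). Of 8 accessory subunits, 5 rose and 1 fell, and with the length correction 3 rose and 1 fell. Epop, an accessory subunit that binds elongin, stood at 766, 672 and 666 CPM in the knockout and 175 and 205 CPM in the rescued libraries, and at 201, 194 and 148 CPM in wild-type E14. Epop fell by 1.89 on the log2 scale (SE 0.18, adjusted p = 7.10e-07). Mtf2, which recruits PRC2 to unmethylated CpGs, stood at 248, 255 and 243 CPM in the knockout and 412 and 394 CPM in the rescued libraries. Mtf2 rose by 0.696 on the log2 scale (SE 0.11, adjusted p = 5.76e-05), or by 0.53 with the length correction. Lcor and Lcorl, whose loci also encode the PALI subunits, rose by 1.01 (SE 0.15, adjusted p = 6.59e-05) and 1.42 (SE 0.12, adjusted p = 2.04e-07), or by 0.67 and 0.56 with the length correction.

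Of 19 PRC1 subunits, 7 fell, 6 rose and 6 were not called, beside 24.1% falling and 20.9% rising over all tested genes. With the length correction 8 fell and 4 rose. Cbx8, a reader of H3K27me3, stood at 9.71, 10.1 and 8.95 CPM in the knockout and 0.555 and 0.429 CPM in the rescued libraries. Cbx8 fell by 4.27 on the log2 scale (SE 0.38, adjusted p = 3.23e-07). Bmi1 (Pcgf4) stood at 27.99, 26.9 and 26.1 CPM in the knockout and 4.21 and 4.88 CPM in the rescued libraries. Bmi1 fell by 2.57 on the log2 scale (SE 0.18, adjusted p = 5.79e-08). Cbx7, the reader that predominates in ESCs, stood at 55.2, 53.1 and 51.4 CPM in the knockout and 128 and 128 CPM in the rescued libraries, a change of 1.26 (SE 0.12, adjusted p = 5.75e-07). Phc3, a polyhomeotic subunit, rose by 1.42 (SE 0.12, adjusted p = 2.91e-07), or by 0.61 with the length correction. So CBX readers moved in opposite directions, Cbx7 up and Cbx8 down, and wild-type E14 held them at 125, 129 and 114 and 0.898, 0.598 and 0.933 CPM.

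All 12 enzymes that oppose Polycomb (demethylases of H3K27, MLL-family and other methyltransferases, deubiquitinase and acetyltransferases) rose, beside 20.9% of all tested genes. These genes are long (median summed exon length 12147 bases), and 58.7% of the longest group of genes given above rose. With the length correction 7 rose, beside 3173 of all 17180 genes in that fit, and the list median fell from 0.97 to 0.38. Kmt2a, an MLL methyltransferase of H3K4, stood at 60.6, 53.4 and 52.996 CPM in the knockout and 194 and 199 CPM in the rescued libraries. Kmt2a rose by 1.82 on the log2 scale (SE 0.14, adjusted p = 8.39e-08), or by 1.04 with the length correction. Ep300, an acetyltransferase, stood at 96.1, 74.1 and 79.3 CPM in the knockout and 242 and 256 CPM in the rescued libraries. Ep300 rose by 1.58 on the log2 scale (SE 0.12, adjusted p = 8.39e-08), or by 0.902. Kmt2d rose by 1.54 (SE 0.15, adjusted p = 1.09e-06), or by 0.65, and Kmt2c by 1.25 (SE 0.19, adjusted p = 7.45e-05), which was not called with the correction (0.35).

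Enzymes of DNA methylation and its removal moved in both directions. Of 8, 6 rose and 2 fell, and with the length correction 3 rose and 3 fell. Tet1, the main dioxygenase of ESCs, stood at 290.1, 284 and 288 CPM in the knockout and 1035 and 1060.2 CPM in the rescued libraries. Tet1 rose by 1.87 on the log2 scale (SE 0.17, adjusted p = 3.73e-07), or by 1.13 with the correction. Dnmt3l, the cofactor of the de novo methyltransferases, stood at 516, 449 and 428 CPM in the knockout and 146 and 162 CPM in the rescued libraries. Dnmt3l fell by 1.59 on the log2 scale (SE 0.26, adjusted p = 1.29e-04). Tet2 and Dnmt3a rose by 1.202 (SE 0.19, adjusted p = 8.64e-05) and 1.005 (SE 0.15, adjusted p = 5.00e-05), and neither was called with the correction (0.42 and 0.23). Dnmt3b changed by -0.87 (SE 0.32, adjusted p = 0.0373), or by -0.96 with the correction, and was not called when any library but knockout replicate 3 was left out (-0.97 to -0.63). Tet3 stood at 14.7, 15.2 and 14.2 CPM in the knockout and 19.02 and 18.1 CPM in the rescued libraries, a rise of 0.34 (SE 0.13, adjusted p = 0.0415) that was not called when any library but knockout replicate 2 was left out (0.33 to 0.37) and became a fall with the correction (-0.45).

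Genes of the 2-cell embryo, which a small fraction of ESCs express at a time, were low in the rescued libraries. Of 9 listed, 7 were tested and all 7 fell, with a median change of -4.35, beside 24.1% of all tested genes that fell. Members may have passed the filter on low counts through the knockout libraries, so the share that fell may be partly set by it. Zfp352, a zinc finger gene, stood at 5.93, 4.82 and 4.41 CPM in the knockout and 0.111 and 0.107 CPM in the rescued libraries. Zfp352 fell by 5.45 on the log2 scale (SE 0.96, adjusted p = 3.39e-04). Usp17lc, a deubiquitinase, stood at 16.7, 18.8 and 17.7 CPM in the knockout and 0.222 and 0.857 CPM in the rescued libraries. Usp17lc fell by 5.01 on the log2 scale (SE 0.86, adjusted p = 2.18e-04). Gm4340 and Tcstv3, members of 2-cell families, changed by -5.08 (SE 0.57, adjusted p = 4.66e-06) and by -4.35 (SE 0.66, adjusted p = 9.57e-05). Zscan4d, a zinc finger factor of the 2-cell stage, stood at 36.04, 41.1 and 42.9 CPM in the knockout and 2.33 and 2.57 CPM in the rescued libraries, a change of -4.02 (SE 0.82, adjusted p = 0.00114). These are multicopy families, reads may have been divided between near-identical copies, and the 7 are not 7 separate measurements. Summed over 5 markers the 2-cell genes stood at 141 to 167 CPM in the knockout and 8.41 to 8.98 CPM in the rescued libraries.

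Of 14 germline genes, 3 fell, 2 rose and 9 were not called, beside 24.1% falling and 20.9% rising over all tested genes. Mael, of the piRNA pathway, stood at 106, 106 and 107 CPM in the knockout and 25.1 and 23.2 CPM in the rescued libraries. Mael fell by 2.14 on the log2 scale (SE 0.32, adjusted p = 4.88e-05). Dazl, a germ cell RNA-binding protein, stood at 27.1, 30.8 and 28.5 CPM in the knockout and 10.9 and 11.1 CPM in the rescued libraries. Dazl fell by 1.38 on the log2 scale (SE 0.28, adjusted p = 8.58e-04). Sycp3, of the synaptonemal complex, stood at 7.07, 9.32 and 11.4 CPM in the knockout and 24.7 and 19.3 CPM in the rescued libraries. Sycp3 rose by 1.25 on the log2 scale (SE 0.29, adjusted p = 0.0022). Ddx4 (Vasa) rose by 1.04 (SE 0.19, adjusted p = 3.82e-04). Asz1 changed by -2.65 (SE 0.87, adjusted p = 0.0204) and was not called without rescued replicate 2 (-1.96) or knockout replicate 2 (-2.26).

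Among the tested secreted ligands of development, the called changes were falls. Of 24 tested Wnt, BMP, Nodal and hedgehog ligands (of 31), 11 fell, none rose and 13 were not called. Over all tested genes 24.1% fell and 20.9% rose. Members at low levels may have passed the filter on low counts through the knockout libraries, so the share that fell may be partly set by it. Bmp2 stood at 2.36, 1.55 and 2.37 CPM in the knockout and 0.0554 and 0.0536 CPM in the rescued libraries. Bmp2 fell by 5.10 on the log2 scale (SE 0.68, adjusted p = 2.26e-05). Wnt4 stood at 1.34, 2.86 and 3.14 CPM in the knockout and 0.222 and 0.0536 CPM in the rescued libraries. Wnt4 fell by 4.095 on the log2 scale (SE 0.88, adjusted p = 0.00122). Wnt3a changed by -4.64 (SE 0.93, adjusted p = 0.00115), and Wnt10b had 24 knockout and 0 rescued counts, at least 4.04-fold lower. Lefty2, a Nodal inhibitor, stood at 208, 127 and 124 CPM in the knockout and 25.3 and 23.6 CPM in the rescued libraries, a change of -2.65 (SE 0.801, adjusted p = 0.0129) that was not called without either rescued replicate (-2.67 and -2.62). Nodal stood at 75.04, 59.5 and 60.3 CPM in the knockout and 37.9 and 42.1 CPM in the rescued libraries and was not called, with a difference of -0.699 (SE 0.33, adjusted p = 0.0916). Inhba had 0 counts in all 5 libraries.

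Of 14 tested FGF ligands and receptors (of 16), 6 fell and 2 rose, beside 24.1% falling and 20.9% rising over all tested genes. Fgf4, the ESC ligand that drives ERK signalling, stood at 155, 156 and 159 CPM in the knockout and 162 and 147 CPM in the rescued libraries. Fgf4 differed by -0.02 on the log2 scale, which did not pass the test (SE 0.12, adjusted p = 0.895). Its length-corrected value was above 0 (0.18). Fgfr2, the receptor enriched in PrE, stood at 25.5, 16.2 and 15.1 CPM in the knockout and 3.604 and 4.5004 CPM in the rescued libraries, a change of -2.22 (SE 0.48, adjusted p = 0.00122), and Fgfr1 at 70.5, 66.4 and 63.9 CPM in the knockout and 85.1 and 85.5 CPM in the rescued libraries, a difference of 0.35 (SE 0.61, adjusted p = 0.671) that was not called. Fgf10, a mesenchymal ligand, fell by 4.21 (SE 0.698, adjusted p = 1.39e-04). Fgf13 fell by 2.41 (SE 0.597, adjusted p = 0.00354) and was not called without rescued replicate 1 (-2.03). Fgf18 stood at 1.14, 0.981 and 1.06 CPM in the knockout and 5.101 and 7.98 CPM in the rescued libraries. Fgf18 rose by 2.62 on the log2 scale (SE 0.51, adjusted p = 6.66e-04). Fgf17 also rose, by 1.48 (SE 0.33, adjusted p = 0.00159).

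Of 14 genes that respond to ERK, 11 were not called, 2 rose and 1 fell. Over all tested genes 20.9% rose and 24.1% fell. Egr1 is described above. Etv5, an ETS factor downstream of FGF, stood at 305, 274 and 268 CPM in the knockout and 506 and 522 CPM in the rescued libraries. Etv5 rose by 0.86 on the log2 scale (SE 0.25, adjusted p = 0.0107), or by 0.92 with the length correction, and was not called without rescued replicate 2 (0.82). Dusp4, an ERK phosphatase, stood at 33.6, 28.6 and 26.9 CPM in the knockout and 6.93 and 7.02 CPM in the rescued libraries. Dusp4 fell by 2.09 on the log2 scale (SE 0.397, adjusted p = 4.60e-04). Spry4, a feedback inhibitor, stood at 125, 127 and 121 CPM in the knockout and 111 and 123 CPM in the rescued libraries, a difference of -0.09 (SE 0.39, adjusted p = 0.877). The list therefore did not move one way. Of 14 tested Wnt targets and inhibitors (of 15), 7 fell and 1, Znrf3, rose, and with the length correction 4 fell and none rose. Znrf3 was also not called without either rescued replicate (0.68 and 0.55) or without knockout replicate 3 (0.54). Beside Dkk1 and T, Sfrp5, a Wnt inhibitor, fell by 1.78 (SE 0.38, adjusted p = 0.00194). Wif1 fell by 1.51 (SE 0.48, adjusted p = 0.0205) and was not called without rescued replicate 1 (-1.597), rescued replicate 2 (-1.43) or knockout replicate 1 (-1.38).

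Of 7 Cdk inhibitors, 4 fell and 1 rose, beside 24.1% falling and 20.9% rising over all tested genes. Cdkn2a, the Ink4a/Arf locus and a classical Polycomb target, stood at 39.5, 38.05 and 41.8 CPM in the knockout and 5.05 and 4.88 CPM in the rescued libraries, and at 3.17, 2.81 and 3.73 CPM in wild-type E14. Cdkn2a fell by 3.003 on the log2 scale (SE 0.43, adjusted p = 3.92e-05). Cdkn2c fell by 1.93 (SE 0.29, adjusted p = 5.57e-05). Cdkn2b fell by 2.47 (SE 0.83, adjusted p = 0.0232) and was not called with the length correction (-1.91), without either rescued replicate (-2.25 and -2.73) or without knockout replicate 2 (-2.34). Cdkn2d fell by 0.92 (SE 0.18, adjusted p = 5.54e-04), also not called with the correction (-0.39). Cdkn1b (p27) stood at 13.8, 12.995 and 14.2 CPM in the knockout and 27.005 and 22.6 CPM in the rescued libraries, a rise of 0.86 (SE 0.18, adjusted p = 9.78e-04), or of 0.85 with the correction.

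Of 24 imprinted genes, 8 rose, 3 fell and 13 were not called. That is 11 of 24 called, close to the 45% of all tested genes, and with the length correction 9 rose and 5 fell. The maternally expressed noncoding RNAs of the Dlk1-Dio3 domain rose while Dlk1, its paternally expressed protein gene, fell. Meg3 stood at 0.244, 0.327 and 0.678 CPM in the knockout and 4.82 and 5.52 CPM in the rescued libraries. Meg3 rose by 3.62 on the log2 scale (SE 0.95, adjusted p = 0.00523). Rian stood at 0.609, 0.899 and 1.27 CPM in the knockout and 8.59 and 7.18 CPM in the rescued libraries. Rian rose by 3.08 on the log2 scale (SE 0.81, adjusted p = 0.00559). Dlk1 stood at 4.75, 6.13 and 5.68 CPM in the knockout and 1.66 and 1.93 CPM in the rescued libraries, a change of -1.62 (SE 0.51, adjusted p = 0.0165) that was not called without either rescued replicate (-1.49 and -1.75). Mest, a paternally expressed hydrolase, stood at 0.488, 0.572 and 0.382 CPM in the knockout and 9.54 and 9.27 CPM in the rescued libraries, and at 12.9, 10.2 and 12.8 CPM in wild-type E14. Mest rose by 4.27 on the log2 scale (SE 0.52, adjusted p = 6.96e-06). Igf2, the fetal growth factor, stood at 36.9, 38.2 and 41.4 CPM in the knockout and 2.55 and 2.63 CPM in the rescued libraries. Igf2 fell by 3.903 on the log2 scale (SE 0.604, adjusted p = 7.33e-05). Kcnq1ot1 rose by 1.52 (SE 0.33, adjusted p = 0.00138) and stood at -0.11 with the length correction. Mest and Igf2 moved in opposite directions. In the 5 genes Meg3, Rian, Dlk1, Mest and Igf2 no rescued library overlapped a knockout library, as in 74.6% of all tested genes.

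Of 14 glycolysis genes 4 rose and none fell, beside 20.9% rising and 24.1% falling over all tested genes. The 4 were Hk2, at 1.01 (SE 0.19, adjusted p = 4.27e-04), Pdk1, at 1.03 (SE 0.26, adjusted p = 0.00419), Pfkp, at 0.98 (SE 0.24, adjusted p = 0.00378), and Hk1, at 0.65 (SE 0.11, adjusted p = 2.03e-04). Only Hk2 of these was called with the length correction (0.81, against 0.69, 0.33 and 0.25). Of 11 stress and p53 genes 4 rose and 3 fell, beside the same shares of all tested genes. Sesn2, a stress sensor, stood at 95.5, 109.6 and 104 CPM in the knockout and 228 and 238 CPM in the rescued libraries. Sesn2 rose by 1.18 on the log2 scale (SE 0.17, adjusted p = 4.17e-05). Atf3 changed by -1.44 (SE 0.302, adjusted p = 0.00101) and Mdm2, the p53 ligase, by 0.69 (SE 0.15, adjusted p = 0.00139), or by 0.602 with the length correction. Trp53inp1 changed by 0.78 (SE 0.21, adjusted p = 0.00623) and was not called without rescued replicate 1 (0.698) or with the length correction (0.54). Of 16 epithelial junction and mesenchymal transition genes 5 fell, 2 rose and 9 were not called, again beside these shares. Cdh1 (E-cadherin), which holds ESC colonies together, stood at 312, 287 and 291 CPM in the knockout and 552 and 554 CPM in the rescued libraries, a change of 0.896 (SE 0.11, adjusted p = 5.83e-06), or of 0.88 with the length correction. Tjp1, of tight junctions, changed by 1.23 (SE 0.11, adjusted p = 2.83e-07). Krt8, Krt18, Snai1 and Twist1, given above, and Cldn7 were those that fell, and Cldn7 was not called without rescued replicate 2 (-1.096).

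**Figure D5:**
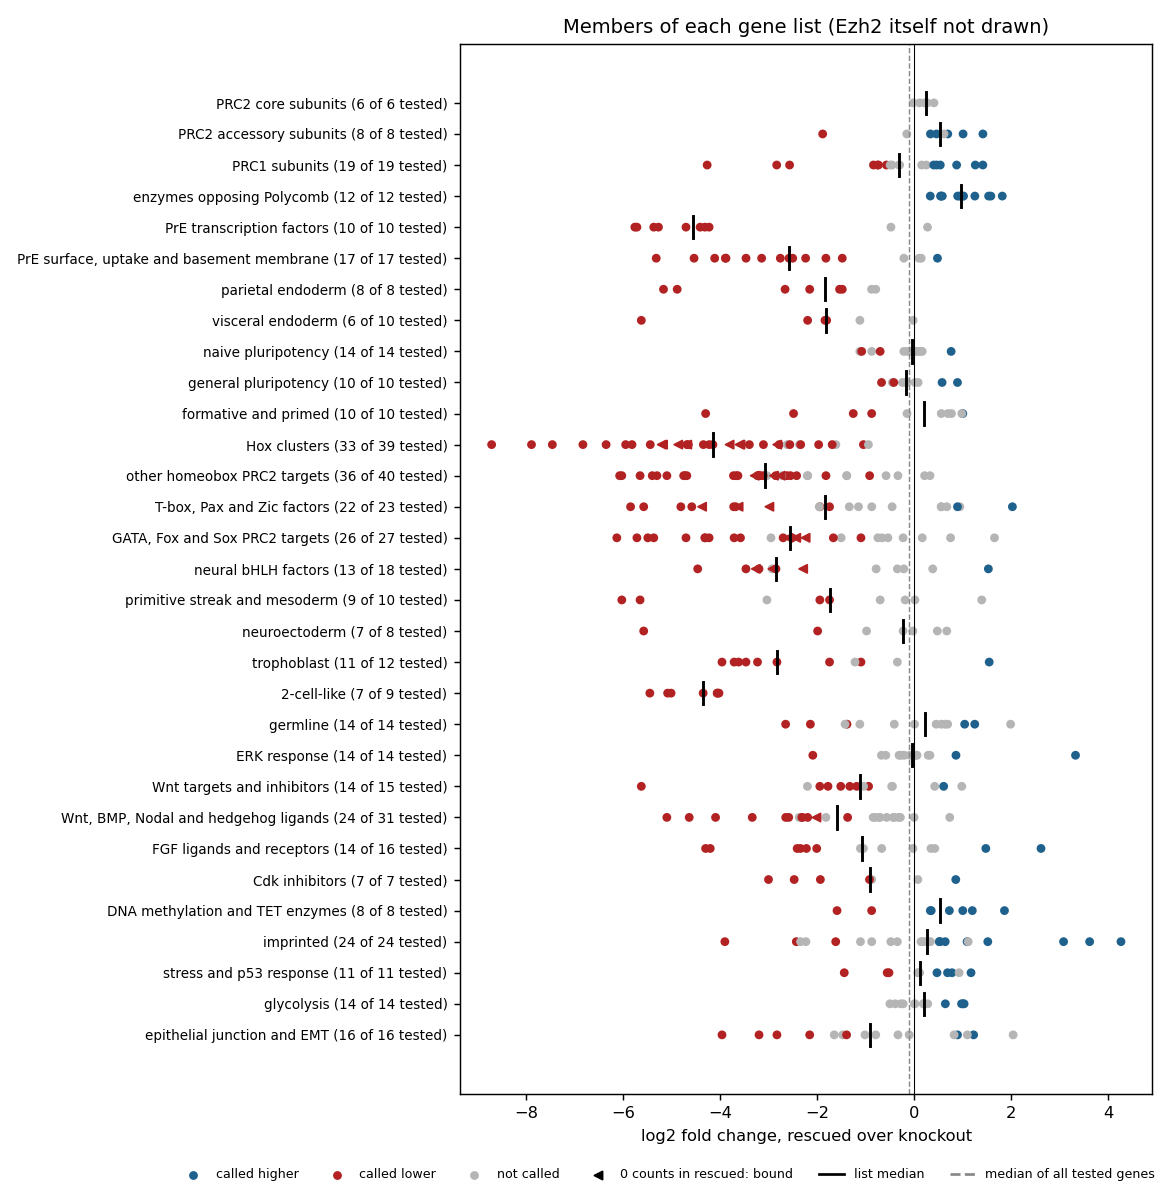
Log2 fold change of rescued over knockout for each tested member of the gene lists, 1 line per list, coloured by call. Triangles are members with 0 rescued counts at their bound, bars are list medians, and the dashed line is the median of all tested genes. Hox, PrE factor and 2-cell lists lie far below 0, and naive pluripotency, ERK and glycolysis lists are centred near 0.

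Gene lists from libraries that share none with this comparison gave a further view. In medium with 2i inhibitors, the same knockout clone (n = 2) was compared with wild-type TG2A (n = 2). The clone differed upward by at least 2-fold in 2018 genes (11.5% of those tested) and downward in 375 (2.14%). Of the 2018, 1089 fell on rescue in serum/LIF (54.0%) and 27 rose (1.34%), with a median change of -1.42. They are 25.8% of all falls. Of the 375, 181 rose (48.3%) and 13 fell (3.47%), with a median of 0.75, and they are 4.93% of all rises. Over all tested genes 24.1% fell, 20.9% rose and the median was -0.11. At 8-fold in 2i, 508 of 760 upward genes fell (66.8%) and 14 of 40 downward genes rose (35%). The clone is the same in both media, so the lists share whatever else the clone carries.

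C57 PrE stem cells (n = 2) against C57 ESCs (n = 2) gave 1349 genes higher in PrE by at least 4-fold (7.69% of those tested) and 2981 lower (17%). Of the PrE-high genes 574 fell on rescue (42.6%), 105 rose (7.78%) and the median change was -0.86. These are 13.6% of all falls. Of the ESC-high genes 432 fell (14.5%), 492 rose (16.5%) and the median was -0.06, close to that of all genes. The 331 genes high both in the 2i knockout and in PrE fell in 251 cases (75.8%) and rose in 2, with a median of -2.04. Genes high in the 2i knockout and not in PrE fell in 838 of 1687 cases (49.7%), and genes high in PrE and not in the 2i knockout in 323 of 1018 (31.7%), where 103 rose. Most falls on rescue were therefore of genes in neither list.

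The rescued libraries differed from wild-type E14 in few called genes. Against E14, 19 genes were called (0.108% of those tested), 5 higher and 14 lower, by edgeR's quasi-likelihood test, with 1588 at an unadjusted p below 0.05. DESeq2 called 184. Leaving out 1 library at a time gave 1 to 20 calls, with 4 without rescued replicate 1, 1 without rescued replicate 2, 9 without E14 replicate 2 and 5 without E14 replicate 3. The knockout against E14 gave 8524 (48.6%). Rescued and E14 libraries shared the higher level of long genes given above, which the knockout libraries lacked. With the length correction, 25 genes were called for rescued and 7339 for knockout against E14. Other properties that the rescued and E14 libraries may share were not tested. The comparisons with E14 share libraries, so their values are set side by side with no test between them. Of the 5 higher genes, Esx1 and Ezh2 differed most. Krt8 stood at 5.21 and 4.88 CPM in the rescued libraries and at 18.5, 15.4 and 33.9 CPM in E14, below the wild type, and at 59.2, 90.8 and 86.2 CPM in the knockout. Cldn4, a claudin, stood at 30.6 and 29.8 CPM against 67.8, 99.5 and 117 CPM in E14. It stood at 30.9, 43.0 and 39.9 CPM in the knockout, and at 51.1 and 24.9 CPM in TG2A. Cldn4 was not called between rescued and knockout (-0.33, SE 0.27, adjusted p = 0.333). Nor were Cpped1, Gm44660, Gm46339, Pnpla8, Ptp4a3 and Ptpn14. The remaining genes of the 19 were also called against the knockout. Esx1, an X-linked homeobox gene of trophoblast picked out for its values, stood at 5.93 and 4.98 CPM against 1.74, 1.73 and 1.57 CPM in E14. In the knockout it stood at 16.1, 16.9 and 17.9 CPM, so the rescued level lay between those of E14 and the knockout. In wild-type TG2A it stood at 4.68 and 2.99 CPM, and rescued against TG2A was not called (0.51, SE 0.26, adjusted p = 0.177). Of the lists, only Ezh2, Krt8 and Cldn4 were among the calls, and the median change against E14 was -0.11 over the 10 PrE factors and -0.25 over the 33 Hox genes. Not passing the test does not show that levels were equal.

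The other wild-type set stood further away. Rescued against TG2A gave 3798 called genes and knockout against TG2A 4863, of which 1564 were higher and 392 lower in the knockout by at least 2-fold. The PrE markers summed to 288 to 293 CPM in TG2A, between the rescued and the knockout libraries. TG2A shared with the knockout the low level of long genes given above, so the small changes against it carry that difference.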

How the data were processed

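RNA-seq was measured in 22 libraries, of which 3 knockout and 2 rescued libraries are the comparison. Tools in the submitters' processing notes are STAR 2.7.6a, Trim Galore and DESeq2, with the mm10 build. The authors deposited 1 table of estimated counts for 55367 gene symbols. Counting tool, annotation and strand setting were not given in the sources used here. Raw counts had been planned for, but the values are not all whole and were rounded before modelling. The labels name polyA RNA and an rRNA depletion kit, so the RNA selection is uncertain.

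The rounded counts were modelled with edgeR 4.0.16 (R 4.3.3): filterByExpr over 10 groups, TMM scaling and a quasi-likelihood fit to all 22 libraries (12 residual degrees of freedom), with Benjamini-Hochberg adjustment over 17547 genes and calls at an adjusted p below 0.05. CPM use the scaled library sizes. Where a group had 0 counts, the fold is a bound from 3 counts over the group, and ratios of few counts carry exact 95% intervals. Intervals and bounds cover counting error only. Symbols were matched to GENCODE M21 (17180 of the tested genes once), which gave coordinates and summed exon lengths. The length correction removed a smooth trend of each library on length (lowess) through the offsets of the edgeR fit. DESeq2 1.42.0 was an alternative. The fit was tested on simulated data.

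The members and lists were chosen with earlier results of these data known. Named genes are Ezh2, Ezh1 and 11 PrE and pluripotency landmarks, then per list the 4 (or fewer) called members that changed most, and the 10 called genes that rose most and the 10 that fell most, where the higher group averaged 10 CPM or more and libraries did not overlap. The 5 rises and 5 falls with the lowest p at a mean of at least 50 CPM were added, and predicted models were not named from these rankings. Other genes are named to complete a count or a family and were chosen after their values were seen. Some genes that the rule names are not reported here. Replicate numbers did not pair the libraries. No batch is given in the labels.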

Additional observations from a re-analysis of the deposited data

How the results depend on the processing

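The counts of calls stayed within 1.5 times under RLE size factors (7906 called), library totals alone (7936), no filter on low counts (7837), at least 1 CPM in 2 of the 5 libraries (7565), DESeq2 (7933), the length correction chosen after seeing the data (6649), only the 5 libraries compared (10789) and only E14 libraries in serum/LIF (9328). Tested against a 1.5-fold change, 3087 genes were called, 1333 higher and 1754 lower, a stricter question by construction. Leaving out 1 library at a time gave 5394 to 7173 called genes, 2662 to 3618 rises and 2537 to 3555 falls, the fewest falls without rescued replicate 1. The replicate numbers share no stated source, and same-numbered libraries did not deviate together (r = -0.077 and -0.071). The fit with the replicate number as a block called 6362 genes, 2999 higher and 3363 lower. Rescued against wild type called 3798 genes with TG2A in place of E14 and 184 in DESeq2, and 1 to 20 when 1 library was left out. Knockout against wild type called 4863 with TG2A. The causes were not tested. Over the 145 named genes, 2035 of 2150 alternative values kept direction and side of the threshold, 96 lost the call (32 called genes at least once), 11 gained it and 8 turned sign. Among these the sign turned in 4 genes that were not called: Nanog (0.15), Esrrb (-0.033), Klf4 (0.081) and Zfp42 (0.42) with the length correction, and Zfp42 also with at least 1 CPM (0.012), in the 5 libraries alone (0.023) and between leave-outs of 1 library (-0.088 to 0.066). The other 41 genes in the text gave 613 alternative values, of which 541 kept direction and side, 34 lost the call (10 genes), 18 gained it and 20 turned sign. With the length correction the called Tet3 (-0.45) and Kcnq1ot1 (-0.11) turned sign, as did Cldn4 (0.13), Eed (0.087), Fgf4 (0.18), Fgfr1 (-0.11), Lrp2 (-0.67) and Nid1 (-0.13), which were not called. Eed and Fgf4 also turned with at least 1 CPM (0.015 and 0.0086) and in the 5 libraries alone (0.027 and 0.020). Signs differed between leave-outs of 1 library for Eed (-0.11 to 0.085), Fgf4 (-0.066 to 0.022), Hnf4a (-0.095 to 0.57) and Spry4 (-0.19 to 0.018). With 2 rescued libraries, a gene at 0 rescued counts is limited to the bound that 3 counts allow. Changes below 2-fold can gain or lose the call with the length correction, and so can some larger ones. Among called changes above 2-fold, Kmt2c (0.35), Tet2 (0.42) and Cdkn2b (-1.91) lost the call with it.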

Other observations

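Genes of the Y chromosome had the highest median change of any chromosome. Over the 6 Y genes the median change of rescued over knockout was 0.57, or 0.41 with the length correction. Over the 15 mitochondrial genes it was -0.30, or 0.36 with the correction, so the distance between them was small once length was taken into account. Medians over the autosomes and the X chromosome ran from -0.11 to 0.16, and from -0.11 to 0.11 with the correction. Uty, an X-Y pair demethylase homologue, stood at 11.9, 9.85 and 9.37 CPM in the knockout and 34.4 and 32.4 CPM in the rescued libraries, and at 25.2, 20.1 and 24.3 CPM in wild-type E14. It rose by 1.69 (SE 0.30, adjusted p = 2.79e-04), or by 1.23 with the length correction. Ddx3y, an RNA helicase, stood at 30.8, 32.0 and 35.1 CPM in the knockout and 76.2 and 74.0 CPM in the rescued libraries, and at 61.1, 57.2 and 50.8 CPM in wild-type E14. It rose by 1.201 (SE 0.33, adjusted p = 0.00673), or by 1.095 with the correction, and was not called in DESeq2 (1.203). Eif2s3y, a translation factor, stood at 63.1, 58.4 and 55.1 CPM in the knockout and 71.0 and 70.1 CPM in the rescued libraries and was not called, with a difference of 0.26 (SE 0.21, adjusted p = 0.335). The Y genes therefore did not move as a block. These genes were chosen after their values were seen, and both calls remained with the length correction.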
